A study of Homo sapiens with 3 samples.

Results

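The 10 genes described here encode receptors and ligands by which myeloma cells and bone marrow stromal cells can hold on to each other or to matrix: the ligands VCAM1 and ICAM1, the integrin subunits ITGA4, ITGB1, ITGA5, ITGAV, ITGAL and ITGB2, and the homophilic adhesion molecules NCAM1 and CDH2. They were taken as a fixed list of symbols from the 43913 gene symbols of the series, and all 10 had at least 1 transcript in it. The study profiled single cells by Drop-seq, in which each cell shares a droplet with a barcoded bead and a unique molecular identifier (UMI) tags every captured RNA molecule. A single library was made of each condition. The conditions were MM.1S (a myeloma B-lymphoblast line) grown alone, HS-5 (a stromal line from bone marrow) grown alone, and a coculture of the pair that lasted 4 h by the labels and methods, though the sources used here do not give 1 duration throughout. No other agent is named in the labels, each line is a single source, and nothing in the labels or methods separates direct contact from soluble factors in the coculture library.

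Integrins are heterodimers of 1 α and 1 β subunit, and a subunit reaches the cell surface only with a partner. ITGA4 with ITGB1 forms VLA-4, the receptor for VCAM1 and fibronectin through which myeloma cells are known to bind stroma. ITGAL with ITGB2 forms LFA-1, the leukocyte receptor for ICAM1, while ITGA5 and ITGAV pair with ITGB1 (ITGAV also with other β subunits) to bind fibronectin and other RGD-bearing matrix proteins. NCAM1 (CD56) is an immunoglobulin-type molecule found on many primary myelomas, and CDH2 (N-cadherin) joins cells that both carry it. VCAM1 and ICAM1 are inducible genes whose promoters are known to bind NF-κB.

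The sequences just upstream of the ligand genes are shown because these genes took different places in the counts: VCAM1 was at or near 0 in every library, ICAM1 was not. Each line gives the 250 bases before the RefSeq transcription start on the plus strand of GRCh38.p14 (VCAM1 on chromosome 1, chr1:100719492-100719741, and ICAM1 on chromosome 19, chr19:10270870-10271119). RefSeq and GENCODE release 29 place some starts differently. The ICAM1 window lies inside the GENCODE gene, which begins at 10270835. Capitals mark matches, on either strand and overlaps included, to GGNNNTNCC, a loose outline of a κB element, or to TTCNNNGAA, the outline of an element bound by STAT factors.
VCAM1: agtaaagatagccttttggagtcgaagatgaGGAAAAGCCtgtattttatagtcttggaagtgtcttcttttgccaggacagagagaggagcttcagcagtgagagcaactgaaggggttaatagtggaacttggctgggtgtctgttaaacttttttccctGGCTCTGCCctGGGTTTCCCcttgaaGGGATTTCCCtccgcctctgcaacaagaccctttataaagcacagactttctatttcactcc
ICAM1: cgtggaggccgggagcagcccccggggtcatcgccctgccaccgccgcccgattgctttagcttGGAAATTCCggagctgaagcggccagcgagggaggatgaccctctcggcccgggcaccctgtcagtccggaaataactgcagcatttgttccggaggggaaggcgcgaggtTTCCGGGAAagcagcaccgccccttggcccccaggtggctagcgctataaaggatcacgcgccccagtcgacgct
The VCAM1 window held 5 matches to the κB outline, of which the pair starting 77 and 62 bases before the start site lay closest to it (a further match at 61 overlaps the latter), and no match to TTCNNNGAA. The ICAM1 window held 1 match to the κB outline, 186 bases before the start, and 1 to TTCNNNGAA, 75 bases before it. These outlines are loose: 45.5% of 35116 RefSeq promoters held the first and 6.57% the second in windows of the same length. Both windows also held TATAAA near the start (29 bases before it for VCAM1, 30 for ICAM1). Anywhere in such a window and on either strand, 10.7% of promoters held it. The share holding it near the start was not counted. A match describes letters and not a bound site. Of the other 8 genes, 5 were matched in the promoter table, and 3 of these (ITGA4, ITGB1 and ITGA5) held the κB outline and none held TTCNNNGAA. The windows of ITGA4, ITGB1, ITGA5 and CDH2 also overlapped the genes as placed by GENCODE.

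After removal of cells with under 200 genes, 3947 MM.1S monoculture cells (10433017 UMIs), 3732 HS-5 monoculture cells (6142273 UMIs) and 3856 coculture cells remained. Coculture cells were given to a line by 80 genes specific to MM.1S and 219 specific to HS-5, each at least 50 times higher in its own monoculture and none of them an adhesion gene. This gave 1634 MM.1S cells (1323631 UMIs) and 2108 HS-5 cells (2485199 UMIs), and 114 cells with UMIs of both lines (2.96%) were left out. The assigning genes were chosen on the monocultures, so how they sort monoculture cells is no check of the split. The median UMIs per cell were 2201 and 670 in MM.1S cells alone and in coculture, and 971.5 and 957.5 in HS-5 cells. Free RNA of HS-5 made up an estimated 1.71% of UMIs in cocultured MM.1S cells (1.49% from genes not used to assign cells), and that of MM.1S 0.82% in cocultured HS-5 cells (1.85%). The libraries shared 39 to 76 barcodes pairwise. The plasma cell markers JCHAIN, MZB1 and TNFRSF17 and the stromal collagens marked the lines as labelled, but SDC1 had 135 CPM in HS-5 against 38.1 CPM in MM.1S monoculture cells, TAGLN was at or near 0 in HS-5, SLAMF7 was near 0 in MM.1S, and the stromal-list genes S100A6, LGALS1, CAV1 and TIMP1 were present in MM.1S too. Markers of other cell types summed to between 8.85 and 24.2 CPM over 11 genes.

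Levels are UMIs per 1000000 UMIs of the group (CPM) with exact 95% Poisson intervals. Drop-seq counts a molecule once at its 3′ end, so levels of different genes are not set against each other here. Since each condition was 1 library, no difference has a replicate check, no test was made, and all intervals cover counting error only. Gene coordinates are those of GENCODE release 29 on GRCh38. In bulk sums such as these, fewer cells with a transcript and fewer transcripts per cell cannot be told apart. Shares of cells are given for that reason, after thinning to 1000 or 500 UMIs per cell, with shallower cells left out. At 1000 UMIs this left out 77 of 3947 MM.1S and 1930 of 3732 HS-5 monoculture cells. It also left out 1256 of 1634 MM.1S and 1105 of 2108 HS-5 coculture cells. Shares, co-detection and cell splits at that depth describe the deeper cells only.

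VCAM1 (chromosome 1, 100719742 to 100739045, plus strand) was all but absent. It had 5 UMIs in MM.1S monoculture cells (0.48 CPM, interval 0.16 to 1.12), carried by 3 of 3947 cells, and none in HS-5 monoculture cells, where 3 UMIs would be 0.49 CPM. In coculture there was no VCAM1 UMI in MM.1S cells and 1 in HS-5 cells (0.40 CPM, 0.010 to 2.24). With cells of at least 1000 UMIs thinned to 1000, 0 of 1802 HS-5 monoculture cells and 0 of 1003 HS-5 coculture cells had a VCAM1 UMI. Counted as 3 of the total, this allows shares of cells with such a UMI of up to 0.166% and 0.299% (0.204% and 0.367% by the exact interval), and it sets no limit on the share of cells that express the gene. At this depth the VCAM1 transcript, the ligand for VLA-4, was not detectable in the stromal line, alone or after 4 h with myeloma cells.

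ICAM1, the ligand for LFA-1 (chromosome 19, 10270835 to 10286615, plus strand), was higher in the myeloma line. Without stroma, MM.1S stood at 44.0 CPM (40.1 to 48.2, 459 UMIs), while HS-5 on its own stood at 10.6 CPM (8.17 to 13.5, 65 UMIs), a 4.16-fold difference (3.20 to 5.48). In coculture the levels were 34.8 CPM in MM.1S (25.4 to 46.4, 46 UMIs) and 13.3 CPM in HS-5 (9.14 to 18.6, 33 UMIs). Neither line's ratio of coculture to monoculture excluded 1: 0.79 in MM.1S (0.57 to 1.07) and 1.255 in HS-5 (0.80 to 1.94). Among cells of 300 to 1500 UMIs the log2 ratio in HS-5 was 1.02, past 2-fold, where it was 0.30 over all kept cells. At 1000 UMIs per cell, 4.03% of MM.1S monoculture cells (3.43 to 4.70%, exact Clopper-Pearson) and 4.23% of MM.1S coculture cells (2.44 to 6.78%) had an ICAM1 UMI, against 1.05% (0.64 to 1.64%) and 0.70% (0.28 to 1.43%) of HS-5 cells. At 500 UMIs per cell the HS-5 shares were 0.57% alone (0.35 to 0.88%) and 0.89% in coculture (0.51 to 1.43%), the opposite order, with overlapping intervals at both depths. The 18 other NF-κB target genes listed beside it summed to 251 CPM in MM.1S monoculture cells and 619 CPM in MM.1S coculture cells (559 CPM after subtraction of free HS-5 RNA), with 5 and 11 of them at 10 CPM or more. The count of 11 was made before that subtraction, and the share of all genes reaching 10 CPM in each group was not counted. In HS-5 the same 18 genes summed to 5022 and 5262 CPM. In the MM.1S comparison 18.9% of all genes were themselves at least 2-fold higher in coculture. The sums do not show how many genes carry them, and a link with ICAM1 was not tested.

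ITGB1, the β subunit shared by VLA-4 and the fibronectin receptor (chromosome 10, 32900319 to 33005792, minus strand), had the highest coculture ratio among the 7 members over 10 CPM in HS-5. Its level was 353 CPM in HS-5 alone (338 to 368, 2167 UMIs) and 594 CPM in cocultured HS-5 (564 to 625, 1476 UMIs), a ratio of 1.68 (1.57 to 1.80), short of the 2-fold limit used for calls. The share of HS-5 cells with an ITGB1 UMI at 1000 UMIs per cell went from 27.4% (25.3 to 29.5%) to 41.9% (38.8 to 45%), and at 500 UMIs per cell from 12.9% to 23.2%. MM.1S cells had 25.9 CPM alone (22.9 to 29.2, 270 UMIs) and 31.7 CPM in coculture (22.9 to 42.9, 42 UMIs), a ratio whose interval held 1 (0.86 to 1.70). The log2 ratio for MM.1S was 0.28 as counted and -0.23 once free HS-5 RNA was subtracted, and no direction can be given for ITGB1 in the myeloma cells. In monoculture ITGB1 was 13.6-fold higher in HS-5 than in MM.1S (12.01 to 15.5).

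ITGA4, the α subunit of VLA-4 (chromosome 2, 181457202 to 181536187, plus strand), was also higher in the stromal line. HS-5 cells had 43.3 CPM alone (38.3 to 48.8, 266 UMIs) and 43.9 CPM in coculture (36.0 to 52.9, 109 UMIs), a ratio of 1.01 (0.80 to 1.27). MM.1S cells had 3.64 CPM alone (2.58 to 4.999, 38 UMIs), 11.9-fold less (8.44 to 17.2). In MM.1S coculture cells it stood at 11.3 CPM (6.34 to 18.7), from 15 UMIs in 10 cells, 3.11 times the monoculture level (1.59 to 5.79). A single cell held 6 of these UMIs, and without it the level was 6.81 CPM and the ratio 1.87 with an interval that held 1 (0.79 to 3.93). That cell had 1223 UMIs and 2.44% of its line-specific UMIs from HS-5, close to the median of 2.93% over all MM.1S coculture cells.

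ITGA5, the α subunit of the fibronectin receptor (chromosome 12, 54395261 to 54419460, minus strand), was counted almost wholly in the stromal line. HS-5 cells had 113 CPM alone (105 to 121, 693 UMIs) and 108 CPM in coculture (95.7 to 122, 269 UMIs). MM.1S cells had 1.92 CPM alone (1.17 to 2.96, 20 UMIs), 58.9-fold less (37.8 to 97.0), and 3.78 CPM in coculture (1.23 to 8.82, 5 UMIs), of which 1.96 CPM were left after subtraction of free RNA. Neither line's coculture ratio excluded 1.

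ITGAV, the αV subunit (chromosome 2, 186590065 to 186680901, plus strand), was the member that passed the 2-fold limit in cocultured MM.1S cells. MM.1S cells had 5.66 CPM alone (4.30 to 7.29, 59 UMIs) and 21.2 CPM in coculture (14.1 to 30.6), from 28 UMIs in 28 different cells. The ratio was 3.74 (2.30 to 5.96), and the log2 ratio of 1.74 was 1.71 after subtraction of free RNA and 1.22 after removal of the trend with transcript length, which for genes of like length had a median of 0.52. The carrying cells had a median of 4.17% HS-5 UMIs among their line-specific UMIs against 2.93% in all MM.1S coculture cells. Among cells with at least 500 genes the log2 ratio was 1.13 at a mean of 9.65 CPM, below the 10 CPM needed for a call. At 1000 UMIs per cell the shares were 0.39% (0.22 to 0.64%) and 1.32% (0.43 to 3.06%), whose intervals overlap, and at 500 UMIs per cell 0.28% (0.14 to 0.50%) and 1.42% (0.83 to 2.27%), whose intervals do not. HS-5 cells had 46.2 CPM alone (41.0 to 51.9, 284 UMIs) and 41.0 CPM in coculture (33.5 to 49.8, 102 UMIs), a ratio of 0.89 (0.70 to 1.12).

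The LFA-1 subunits were scarce in both lines. ITGAL, the αL subunit (chromosome 16, 30472658 to 30523185, plus strand), had 3.07 CPM in MM.1S monoculture cells (2.10 to 4.33, 32 UMIs), 3.02 CPM in MM.1S coculture cells (4 UMIs), 0.65 CPM in HS-5 monoculture cells (4 UMIs) and 1.61 CPM in HS-5 coculture cells (4 UMIs). ITGB2, the β2 subunit (chromosome 21, 44885953 to 44931989, minus strand), had 6.33 CPM in MM.1S monoculture cells (4.89 to 8.05, 66 UMIs in 59 cells) and a single UMI in MM.1S coculture cells (0.76 CPM, 0.019 to 4.21), a level 8.37-fold lower with a wide interval (1.45 to 336). HS-5 cells had 1.95 CPM alone (12 UMIs) and 2.01 CPM in coculture (5 UMIs). The antisense gene ITGB2-AS1 overlaps ITGB2 and had 38, 1, 7 and 4 UMIs in MM.1S alone, MM.1S in coculture, HS-5 alone and HS-5 in coculture; whether counting used strand is not given in the sources used here, so reads of this pair may not be told apart.

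NCAM1 and CDH2 were both higher in the stromal line. NCAM1 (chromosome 11, 112961247 to 113278436, plus strand) had 21.5 CPM in HS-5 cells alone (18.0 to 25.5, 132 UMIs) and 20.9 CPM in coculture (15.6 to 27.4, 52 UMIs), against 2.68 CPM (1.78 to 3.88, 28 UMIs) and 6.04 CPM (2.61 to 11.9, 8 UMIs) in MM.1S cells. CDH2 (chromosome 18, 27950966 to 28177446, minus strand) had 125 CPM in HS-5 cells alone (116 to 134, 768 UMIs) and 97.0 CPM in coculture (85.1 to 110, 241 UMIs), 1.29-fold lower (1.11 to 1.496). In MM.1S cells CDH2 came to 7 UMIs alone and 1 in coculture (0.67 and 0.76 CPM), at the edge of detection. HS-5 exceeded MM.1S in monoculture by 8.01-fold for NCAM1 (5.29 to 12.5) and by 186-fold for CDH2 (90.01 to 465).

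**Figure D1:**
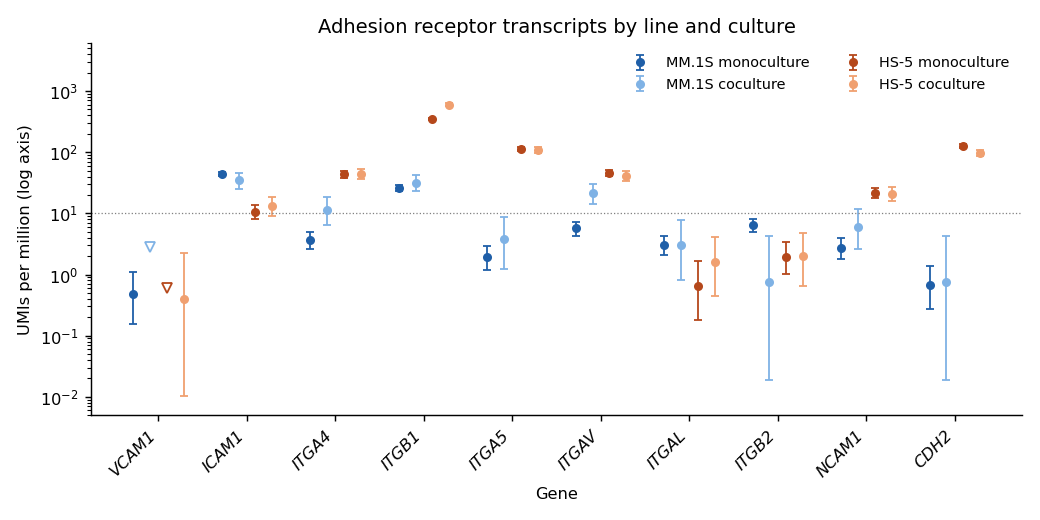
Level of each gene in the 4 groups of cells, in CPM on a log axis, with exact 95% Poisson intervals for counting error; open triangles mark the upper limit where no UMI was seen, and the dotted line is 10 CPM. ITGB1, ITGA5, ITGA4, ITGAV, NCAM1 and CDH2 lie higher in HS-5, ICAM1 lies higher in MM.1S, and VCAM1 lies below 1 CPM wherever it was seen.

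The members' counts past each limit can be read beside those of all genes. Of the 7 members with at least 10 CPM in either monoculture, 3 (ITGB1, ITGA5 and CDH2) were at least 10-fold higher in HS-5 on the log2(CPM + 1) scale, against 7.86% of 9871 genes, and none was 10-fold higher in MM.1S, against 3.2% of genes. The median log2 ratio of HS-5 over MM.1S was 3.25 over these 7 members and 0.62 over all genes past the same filter. ITGA4, ITGA5, ITGAV, NCAM1 and CDH2 passed this filter only through HS-5. The members left out, VCAM1, ITGAL and ITGB2, had negative log2 ratios (-0.56, -1.30 and -1.31). The median of the 7 is thus partly set by the filter. ITGA4, at 3.25, was just short of the limit on this scale, and ITGB1, at 3.72, was the member just past it. Without the pseudocount the ratio of ITGA4 was 11.9-fold, past 10-fold. In MM.1S coculture cells 1 of the 3 members whose mean reached 10 CPM was at least 2-fold higher (ITGAV), against 18.9% of 7838 genes, and none was 2-fold lower, against 5.74%. ITGAV had 5.66 CPM in MM.1S alone and passed the filter only through its 21.2 CPM in coculture. Its count is therefore not independent of the filter. The median of all genes was itself 0.24 in this comparison, and that of the 3 members 0.28. In HS-5 coculture cells none of 7 members was 2-fold higher or lower, against 1.17% and 1.8% of 8810 genes.

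**Figure D2:**
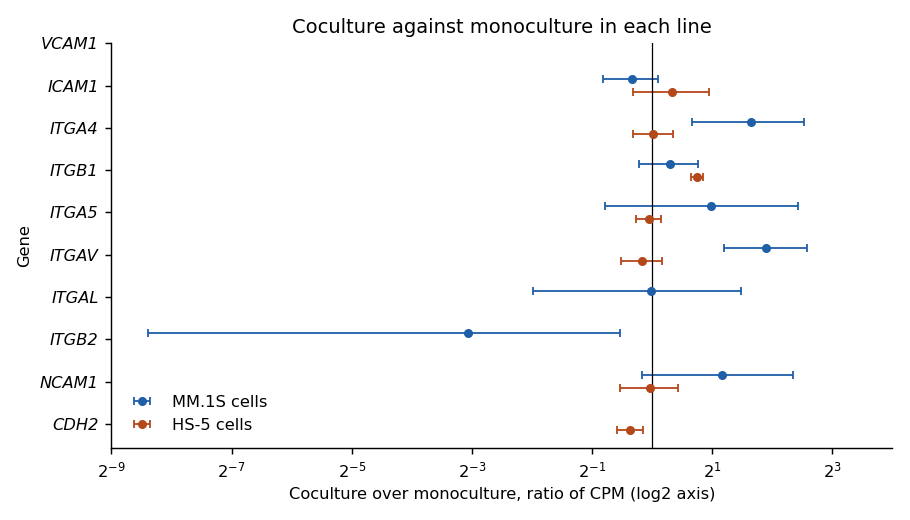
Ratio of coculture to monoculture CPM in the cells of each line on a log2 axis, with exact 95% conditional intervals for counting error, for genes with UMIs in both cultures and at least 20 in all. In HS-5 cells the intervals of ITGB1 and CDH2 exclude 1, and in MM.1S cells those of ITGAV, ITGA4 and ITGB2. That of ITGA4 holds 1 when a single cell is left out, and ITGB2 has 1 UMI in MM.1S coculture cells.

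**Figure D3:**
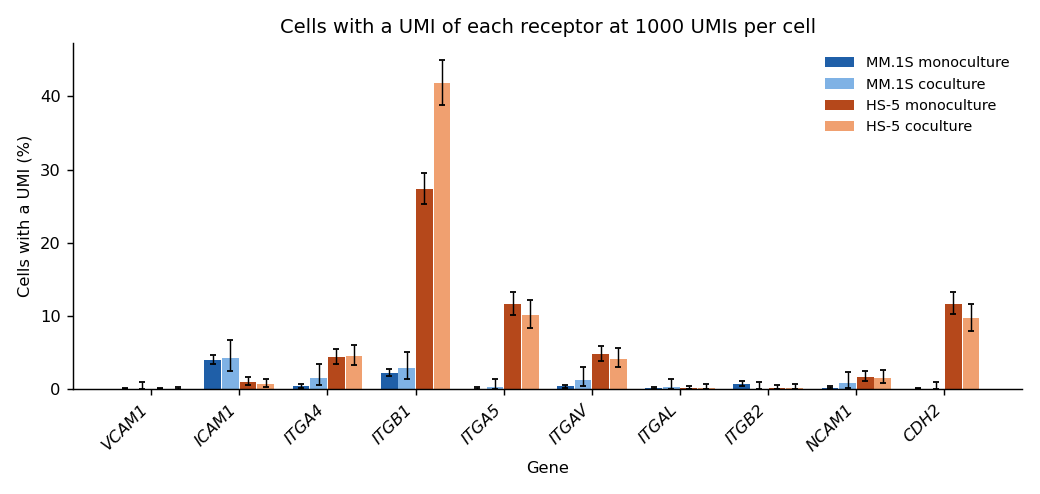
Share of cells with a UMI of each gene among cells of at least 1000 UMIs thinned to 1000, in percent, with exact 95% Clopper-Pearson intervals as error bars. Shallower cells were left out, which leaves 3870, 378, 1802 and 1003 cells in the order of the legend. The share of HS-5 cells with ITGB1 is 27.4% alone and 41.9% in coculture, and the shares for ITGA5 and CDH2 in MM.1S are near 0.

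Partner subunits were also looked for in the same cell. At 1000 UMIs per cell, ITGB1 was found in 35.4% of 79 ITGA4-bearing HS-5 monoculture cells (25.0 to 47.0%) and in 27.0% of cells without ITGA4 (24.9 to 29.2%). For ITGA5 the shares were 21.9% with (16.5 to 28.1%) and 28.1% without (25.9 to 30.4%), and for ITGAV 24.4% (15.8 to 34.9%) and 27.5% (25.4 to 29.7%). All these intervals overlap with those of the cells lacking the α subunit. At 500 UMIs per cell the order turned for ITGA4 (10.6% with and 13.0% without) and for ITGAV (21.5% and 12.7%), so no direction can be read. At 1000 UMIs per cell, none of the 16 MM.1S monoculture cells with ITGA4 and none of the 15 with ITGAV had an ITGB1 UMI. This allows shares of up to 20.6% and 21.8% by the exact interval, against 2.28% of the other cells. With so few cells and so low a share in the others, finding none would be likely without any link too. Co-expression in MM.1S cells cannot be read from these counts.

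Among HS-5 monoculture cells, CDH2 and ITGA5 were higher and ITGB1 lower in cells rich in matrix transcripts. Cells of at least 1000 UMIs were split at the upper quartile of their UMIs for 11 matrix genes (collagens and the like, no member among them). The split was made at 1000 UMIs each, which gave 606 cells high and 1196 low. CDH2 had 157 CPM in the high cells and 106 CPM in the low ones, a ratio of 1.48 (1.246 to 1.76). ITGA5 had 130 and 99.3 CPM, a ratio of 1.31 (1.09 to 1.58). ITGB1 was lower in matrix-high cells, at 318 against 404 CPM (ratio 0.79, 0.71 to 0.88). With the split at the upper decile the interval excluded 1 for CDH2 (ratio 1.58, 1.24 to 1.998) but not for ITGA5 (0.99 to 1.70) or ITGB1 (0.71 to 1.00). ITGB1 was also lower in the 459 cells high in 15 G2/M genes than in the other 1343 (311 against 397 CPM, ratio 0.78, 0.69 to 0.88), and at the upper decile (ratio 0.77, 0.64 to 0.93). NCAM1 had a ratio of 1.42 in the G2/M split (0.86 to 2.27), and of 1.98 at its upper decile (1.03 to 3.51, 14 UMIs in the high cells). With 7 cytokine genes or 8 interferon genes as the split, no member of the 7 over 10 CPM had an interval that excluded 1, ICAM1 included (9.12 CPM in cytokine-high and 11.6 CPM in other cells, ratio 0.79, 0.37 to 1.55). The cells of a split are of 1 library and are no replicates, and 233 cells lay at the limit of the matrix split.

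**Figure D4:**
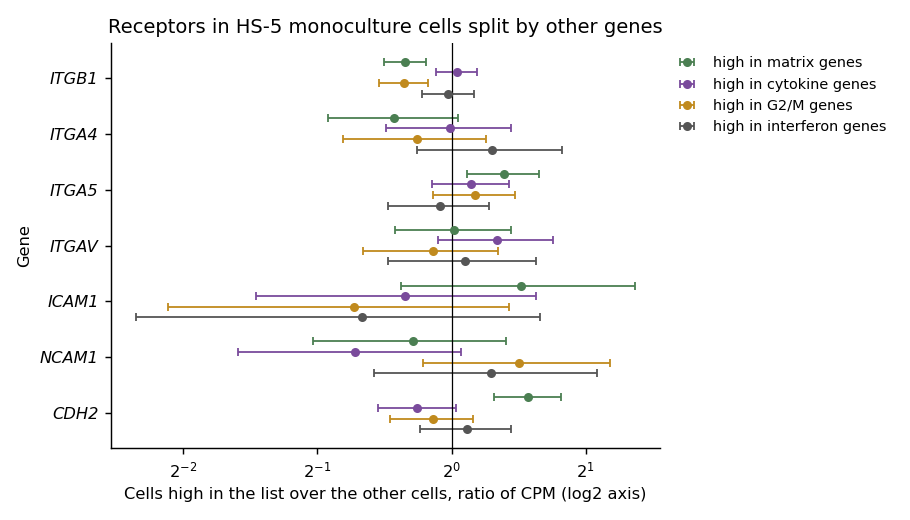
Ratio of CPM in HS-5 monoculture cells high in a gene list to that in the other cells on a log2 axis, with exact 95% conditional intervals for counting error, for the 7 members over 10 CPM and 4 lists. CDH2 and ITGA5 lie above 1 and ITGB1 below 1 for the matrix list, and ITGB1 lies below 1 for the G2/M list.

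In MM.1S monoculture cells the split by G2/M genes set ITGB2 apart. It had 9.87 CPM (54 UMIs) in the 2330 cells without a UMI of these genes at 1000 UMIs each and 2.25 CPM (11 UMIs) in the 1540 cells with at least 1, a ratio of 0.23 (0.11 to 0.44). ICAM1 had 42.4 and 46.0 CPM in the same cells (ratio 1.09, 0.90 to 1.31) and ITGB1 24.1 and 28.0 CPM (ratio 1.16, 0.91 to 1.49).

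The genes around these receptors place other partners. The β7 subunit ITGB7 (chromosome 12, 53191318 to 53207307, minus strand), which pairs with α4 to bind MAdCAM-1 and with αE to bind E-cadherin, had 24.6 CPM in MM.1S monoculture cells (257 UMIs) and no UMI among HS-5 cells in either culture. Set against a floor of 3 UMIs in HS-5 alone (0.49 CPM), its level was at least 50.4-fold higher in MM.1S, and the exact interval of the ratio, which allows for a true level above that floor, began at 40.7-fold. In MM.1S coculture cells it had 13.6 CPM (18 UMIs), 1.81-fold lower (1.12 to 3.10). Its partner ITGAE had 41.4 CPM in MM.1S and 42.5 CPM in HS-5 cells alone, and 76.9 CPM in cocultured HS-5 cells (ratio 1.81, 1.49 to 2.19). Of 20 other integrin subunits 7 reached 10 CPM in a monoculture, of which 4 (ITGA1, ITGA2, ITGA3 and ITGA6) were at least 10-fold higher in HS-5 (7.86% of all genes) and only ITGB7 was so in MM.1S (3.2%). ITGA2, a collagen-binding subunit, had 138 CPM in HS-5 and 2.396 CPM in MM.1S, and ITGA6, a laminin-binding subunit, 125 and 8.15 CPM.

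Among integrin activators and adhesion-site adaptors, 8 of 21 measured genes were at least 10-fold higher in HS-5 (7.86% of all genes) and none in MM.1S (3.2%). FERMT2 (kindlin-2), an integrin activator, had 87.4 CPM in HS-5 and 0.67 CPM in MM.1S, and PARVA 41.4 and 0.19 CPM, whereas FERMT1 (kindlin-1) had 5.70 CPM in HS-5 and 41.8 CPM in MM.1S. In cocultured MM.1S cells 5 of 16 genes of this list were at least 2-fold higher (18.9% of all genes) and none lower (5.74%). FLNA, the actin crosslinker filamin A, had 76.3 against 19.4 CPM (log2 1.92, and 1.42 with the length trend removed). RAP1B, a GTPase that activates integrins, had 84.6 against 32.8 CPM. With the length trend removed 2 of the 16 were higher and 1 lower. Of the 5, ZYX had 7.38 CPM alone and 20.4 CPM in coculture, and so passed the 10 CPM limit only through coculture. In HS-5 none of 19 passed 2-fold, and ZYX (zyxin) had 35.8 CPM in coculture against 68.2 CPM alone (ratio 0.53, 0.41 to 0.66).

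Of 11 measured matrix ligands of integrins, 8 were at least 10-fold higher in HS-5 (7.86% of all genes) and only SPP1 was so in MM.1S (3.2%). CYR61, THBS1 and CTGF were 8.54, 7.90 and 7.92 higher in HS-5 on the log2(CPM + 1) scale. SPP1 (osteopontin), a ligand of αV and α4 integrins, had 2397 CPM in MM.1S and 6.35 CPM in HS-5 alone, and FN1 (fibronectin), the ligand of α5β1 and α4β1, had 810 and 252 CPM. In cocultured MM.1S cells FN1 had 2220 CPM (ratio 2.74, 2.63 to 2.86) and SPP1 5458 CPM (ratio 2.28, 2.22 to 2.34), and LAMA5 passed 2-fold as well, so that 3 of 4 measured matrix ligands did, against 18.9% of all genes. With the length trend removed 1 of the 4 passed 2-fold. LAMA5 had 8.24 CPM alone and 18.1 CPM in coculture, and so passed the 10 CPM limit only through coculture. SPP1 reached 51.9 CPM in cocultured HS-5 cells, a log2 ratio of 2.85 that was 0.16 after subtraction of free MM.1S RNA.

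Molecules that join cell to cell were split between the lines. Of 11 measured immunoglobulin-type molecules, JAM3, ALCAM and NECTIN3 were at least 10-fold higher in HS-5 (7.86% of all genes) and CADM1 in MM.1S (3.2%), with ALCAM at 362 CPM in HS-5 and 0.86 CPM in MM.1S and CADM1 at 3.74 and 401 CPM. In coculture PVR, the poliovirus receptor, was 2-fold lower in HS-5 (27.8 to 10.9 CPM, 2.56-fold, 1.70 to 4.00), 1 of 9 measured where 1.8% of all genes were. In cocultured MM.1S cells F11R and MCAM were 2-fold higher, 2 of 5 measured where 18.9% of all genes were. With the length trend removed the log2 ratio of F11R was 0.71, under 2-fold, and that of MCAM 1.20. MCAM had 6.81 CPM alone and 22.7 CPM in coculture, and so passed the 10 CPM limit only through coculture. Of 6 measured cadherins and catenins, CDH4 was at least 10-fold higher in HS-5 (7.86% of all genes) and JUP (plakoglobin) in MM.1S (3.2%). CTNNB1 (β-catenin), which links CDH2 to actin, had 305 CPM in HS-5 alone and 167 CPM in coculture, 1.83-fold lower (1.65 to 2.04). SELPLG, the P-selectin ligand PSGL-1, had 97.9 CPM in MM.1S and 2.44 CPM in HS-5 and was the 1 gene of 7 selectins and ligands over 10 CPM. Of the sheddases that cleave such receptors, ADAM10 had 191 CPM in MM.1S and 66.3 CPM in HS-5 and ADAM9 19.3 and 127 CPM.

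Genes most like 4 of the members in their pattern over the 4 groups were found as the smallest root mean square difference of centred log2(CPM + 1) among 8169 genes, a description over 4 points of 3 libraries. For ITGB1 they were SOD2, ID1 and MCOLN3 (differences of 0.093, 0.14 and 0.14), for ITGA4 DNAJB2, VIM and SLC25A37 (0.064, 0.076 and 0.082), and for ICAM1 DLD, ELF1 and HYOU1 (0.013, 0.053 and 0.066). For VCAM1 the nearest were PPP1R21, KLF3 and DTWD1, of little meaning since VCAM1 had 6 UMIs in all. The differences take no account of counting error. The MM.1S coculture level of ITGA4 was 11.3 CPM with and 6.81 CPM without 1 cell. That of ITGB1 was 31.7 CPM as counted and 21.9 CPM after subtraction of free RNA. Likeness was not recomputed on these levels, so the nearest genes are not settled.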

How the data were processed

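The authors deposited UMI counts per gene and cell barcode for 3 Drop-seq libraries, raw and without normalization. The submitters' processing notes name Cell Ranger 3.0.2, UMI-tools 1.0.0, STAR 2.5.3a, featureCounts 1.6.4, SAMtools 1.9 and GRCh38, and the methods name Seurat; the annotation, the strand setting and the choice of barcodes are not given in the sources used here. The depths were 10433182, 6143448 and 3981392 UMIs.

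Cells with at least 200 genes were kept. Genes of at least 50 CPM in a monoculture and 50 times the other (counted as at least 3 UMIs) assigned coculture cells, with mixed shares from 0.2 to 0.8 left out; doublets within a line were not removed. For each line within a library, UMIs were added up over cells and expressed as CPM. Log2 ratios have a pseudocount of 1 CPM, whereas ratios with intervals are of plain CPM. A gene was counted as changed at a mean of at least 10 CPM and 2 fold (coculture), or 10 fold with 10 CPM in the higher monoculture. A gene could thus pass the level limit only through the group in which it was then counted as higher. All genes were held to the same limit. Intervals are 95% exact Poisson, conditional binomial or Clopper-Pearson, for counting error; 3 UMIs are worth 0.29 to 2.27 CPM. No test was possible with 1 library per condition. The steps were tested on simulated data. The share of free RNA came from genes specific to the opposite line, above their level in the own monoculture. Lengths come from GENCODE release 29, promoters from RefSeq (GRCh38.p14; 7 of 10 members matched). Python 3.11.15, numpy 2.4.6, scipy 1.17.1 and pandas 2.3.3 were used. The members, the lists and the other alternatives were chosen with earlier results of these data known. Named genes are the 10 members, the 3 highest and 3 lowest ratios of each list over 10 CPM, the 3 genes most like each of 4 members, and the marker genes. The alternatives that leave out shared barcodes or the ITGA4-rich cell were chosen after seeing the data.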

Additional observations from a re-analysis of the deposited data

Results flagged for a closer look

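Of the members with at least 10 CPM in both lines, ICAM1 and ITGAV had coculture ratios of opposite sign in MM.1S and HS-5 cells; with 1 library per condition the difference was not tested. For ITGAV the log2 ratio was 1.74 in MM.1S and -0.17 in HS-5, a difference of 1.903, and the interval of the ratio excluded 1 only in MM.1S. For ICAM1 it was -0.33 in MM.1S and 0.30 in HS-5, a difference of -0.63, and both intervals held 1.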

How the results depend on the processing

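No paired analysis was possible because each condition is 1 library. Of 106 recounts of the members past the limits under 22 settings, 99 stayed within 1.5 times the reported count, though 4 of the 6 counts are 0 and could hardly move. Of 140 recomputed single values of HS-5 over MM.1S, 22 moved past their counting interval without changing sign in any called gene (CDH2 from 4.52 to 7.34), and 9 of 56 counts over the wider lists moved by over 1.5 times. Members at least 10-fold higher in HS-5 numbered 3. By the setting's own construction they numbered 6 at 5-fold and 1 at 50-fold. The share of all genes was not counted under the other limits and settings. The recounts here and below therefore do not show how the members stand beside all genes. Members 2-fold higher in cocultured MM.1S cells numbered 1, which became 0 among cells with at least 500 genes (ITGAV at log2 1.13, with a mean of 9.65 CPM) or at a minimum of 50 CPM, and 2 at a minimum of 5 CPM. Members 2-fold higher in cocultured HS-5 cells numbered 0, which became 1 among cells of 300 to 1500 UMIs (ICAM1, log2 1.02) and 1 at 1.5-fold (ITGB1). The cause of the changes with depth was not tested. Over all settings, ITGB1 in HS-5 ranged from 0.74 to 0.98, CDH2 in HS-5 from -0.46 to -0.23 and ITGAV in MM.1S from 1.13 to 2.08. ITGB1 in MM.1S ranged from -0.23 to 0.34 and ITGA4 from 0.75 to 1.76. Leaving out barcodes found in several libraries, an alternative chosen after seeing the data, moved no count, and leaving out the cell with most ITGA4 UMIs, likewise chosen later, gave the 0.75 for ITGA4. Depth limits MM.1S cells in coculture most, where 3 UMIs are worth 2.27 CPM.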
